A study of Mus musculus with 40 samples.

Results

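The histone variant genes H1foo, H1f0, H3f3a, H3f3b, H2afz, H2afv, H2afy and H2afj were followed across 40 single mouse embryos. The 8 genes were a fixed list of replication-independent histone variants, found by matching GENCODE M21 symbols to the Ensembl identifiers of the deposited count tables, and all 8 were present among 55487 mouse gene entries. Each embryo came from zygotes injected with small interfering RNA (siRNA) at 20 µM, 17 to 18 hours after human chorionic gonadotropin (hCG), which triggers ovulation. The control groups (siCon) held 7 embryos at the 4-cell stage and 8 at the 8-cell stage, and the groups given siRNA against Rif1 (siRif1) held 13 and 12. RIF1 is a chromatin protein that controls replication timing. The 4-cell embryos were collected at 63 hours after hCG and the 8-cell embryos at 70 hours, after culture at 37 °C in 5% CO2, so stage and hours in culture cannot be told apart. The genotype label shared by all groups is a cross of (C57BL/6J xCBA) with DBA/2J, although the number in the DBA label rises from 2 to 41 over the 40 samples. The animals' ages are not in the labels.

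Replication-independent variants are not limited to S phase and come from genes with introns or polyadenylated transcripts. They replace the canonical histones that are supplied at the replication fork. H3.3 is placed at active genes and, by other chaperones, at repeats, and it enters the paternal genome after fertilization. H2A.Z flanks transcription start sites, macroH2A carries a large extra domain and is linked to silent chromatin, and the oocyte linker histone is known to give way to somatic linker histones as the embryo takes over transcription.

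H3f3a and H3f3b encode the same H3.3 protein, and the first 300 bases of their coding sequences are shown because the read counts of this pair moved in opposite directions. Both coding sequences are 411 bases long, from GENCODE M21 transcripts on GRCm38 and on the minus strand of each chromosome, and capitals mark the bases that differ between them.
H3f3a: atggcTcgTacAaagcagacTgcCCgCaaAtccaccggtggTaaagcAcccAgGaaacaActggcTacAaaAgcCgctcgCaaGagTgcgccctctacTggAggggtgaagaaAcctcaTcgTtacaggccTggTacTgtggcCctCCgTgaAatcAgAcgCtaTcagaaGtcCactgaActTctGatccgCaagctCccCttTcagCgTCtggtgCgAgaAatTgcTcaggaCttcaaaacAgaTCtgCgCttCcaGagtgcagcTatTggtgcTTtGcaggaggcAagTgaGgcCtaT
H3f3b: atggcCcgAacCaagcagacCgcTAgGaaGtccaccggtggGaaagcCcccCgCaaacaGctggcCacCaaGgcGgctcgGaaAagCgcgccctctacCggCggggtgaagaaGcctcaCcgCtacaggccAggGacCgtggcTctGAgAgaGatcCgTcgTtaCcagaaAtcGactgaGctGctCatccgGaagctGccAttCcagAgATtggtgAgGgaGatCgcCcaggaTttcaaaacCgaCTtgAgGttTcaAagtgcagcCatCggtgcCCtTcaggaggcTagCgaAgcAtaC
Over the whole coding sequence the pair differed at 95 bases and was 76.9% identical. The differences fell in 83 of 137 codons, every one of these changes was synonymous, and 81 of the differing bases were at the third base of a codon. The longest identical stretch was 23 bases. The H2A.Z pair, H2afz and H2afv, was 79.1% identical over 387 coding bases, with 3 codons that change the residue.

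The promoters of the H3.3 genes are shown for the same reason, from RefSeq on GRCm38.p6, in windows of 300 bases that end just after a RefSeq transcript start, on the minus strand. The windows lie inside each gene as GENCODE M21 annotates it, since other annotated starts lie further upstream. H3f3a lies at chr1:180813556-180813855 and H3f3b at chr11:116024455-116024754. Capitals mark matches, on both strands, to the CCAAT box as CCAAT, the core of the TATA box as TATAAA, the GC box as GGGCGG and the E-box as CANNTG, and neighbouring GGGCGG matches overlap in the first sequence.
H3f3a promoter: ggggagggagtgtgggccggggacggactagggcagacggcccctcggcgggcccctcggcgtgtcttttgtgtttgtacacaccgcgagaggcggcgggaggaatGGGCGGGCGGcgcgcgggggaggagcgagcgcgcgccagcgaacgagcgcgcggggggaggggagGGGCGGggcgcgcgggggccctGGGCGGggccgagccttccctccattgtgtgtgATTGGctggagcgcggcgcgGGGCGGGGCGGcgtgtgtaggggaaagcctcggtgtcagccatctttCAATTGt
H3f3b promoter: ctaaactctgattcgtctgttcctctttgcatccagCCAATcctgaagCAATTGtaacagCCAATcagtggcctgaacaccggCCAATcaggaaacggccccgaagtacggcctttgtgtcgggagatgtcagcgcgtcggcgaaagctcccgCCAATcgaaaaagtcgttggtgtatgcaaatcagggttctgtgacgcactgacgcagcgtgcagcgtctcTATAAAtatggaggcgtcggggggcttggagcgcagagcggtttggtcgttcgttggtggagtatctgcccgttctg
The H3f3a window held 6 GC box matches, 1 CCAAT box, no TATA box match and 39 CpG dinucleotides at 74% GC. The H3f3b window held 4 CCAAT boxes, 1 TATA box, no GC box match and 24 CpG at 55% GC. Each window also held 1 E-box match. Among 32851 promoter windows of this length, 37.4% held a match to the CCAAT box, 13.6% to the TATA box, 35.7% to the GC box and 72.3% to the E-box, with a median of 7 CpG and 52.7% GC. A match is a description of letters and not a binding site.

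The libraries held between 704863 and 8890551 counts on mouse genes (median 3186068.5). All 8 preimplantation markers had counts in all 40 libraries, and of 16 cumulus and granulosa cell genes 6 to 11 had a count in a group. Fshr, Inhba and Ptx3 were at 0 in all libraries, while Amhr2 and Nr5a2 had counts in all 40 and Star in 39. Over the 40 libraries the median was 178 CPM for Nr5a2, 62.4 CPM for Amhr2, 2.30 CPM for Star and 0.191 CPM for Vim. Every other gene of this list had a median of 0. The list summed to 86.8 to 423 CPM in siCon and 194 to 288 CPM in siRif1 4-cell embryos, and to 217 to 325 CPM and 175 to 422 CPM at the 8-cell stage, and its part in the results was not tested. In the controls, 2 embryos at the 4-cell stage, numbers 3 and 7, had 4979 and 6461 CPM (gene counts scaled to a common library total) summed over a list of 45 maternal oocyte transcripts, against 2910 to 3878 CPM in the other 5 embryos of the group. The mean level of Rif1, the target of the siRNA, was 428 ± 107 CPM (SD, n = 7) in siCon and 178 ± 94.5 CPM (n = 13) in siRif1 4-cell embryos, and 314 ± 42.6 (n = 8) and 220 ± 92.9 CPM (n = 12) at the 8-cell stage. Rif1 fell by 1.26 on the log2 scale at the 4-cell stage (SE 0.24, adjusted p 0.0064 in edgeR's quasi-likelihood test). In alternatives chosen after these values were seen, the difference was -1.35 without control embryos 3 and 7 (adjusted p 0.051), -1.23 with each replicate number as a block (adjusted p 0.071), -1.10 with spike-in totals as scale (adjusted p 0.60) and -1.27 when the 4-cell groups were fitted by themselves (adjusted p 0.054), and the call was lost in each of these edgeR fits. The call held in 4 other alternatives (-1.36 to -1.24) and in all 20 fits with 1 embryo left out (-1.41 to -1.18). At the 4-cell stage 11 of 13 siRif1 embryos were below every control. At the 8-cell stage the difference was -0.52 (SE 0.24, adjusted p 0.999 in edgeR), and 9 of 12 siRif1 embryos were below every control. Fewer cells of a kind and less RNA per cell cannot be told apart in a whole embryo. Separate litters or injection days are not named in the labels, so p-values measure the spread between these embryos, and reads without molecular identifiers are not independent molecules.

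Levels are CPM scaled by TMM, and levels of different genes are compared only per length, as RPKM, which is CPM divided by exon length in kilobases. In siCon 4-cell embryos the mean level per length was 673 RPKM for H3f3b, 370 RPKM for H2afz, 179 RPKM for H3f3a and 105 RPKM for H2afv. H2afj at 13.2 RPKM, H1foo at 11.5 RPKM and H1f0 at 9.14 RPKM followed, and H2afy was lowest at 0.265 RPKM. Embryo 3 held 43.1 RPKM of H1foo, and without it the mean was 6.20 RPKM for H1foo, below 8.17 RPKM for H1f0. The embryos of neighbours in this order overlapped for H3f3b and H2afz, for H3f3a and H2afv and among H2afj, H1foo and H1f0, and did not for H2afz and H3f3a, for H2afv and H2afj or for H1f0 and H2afy. In siCon 8-cell embryos H2afz was highest at 460 RPKM, followed by H3f3b at 318 RPKM, H3f3a at 240 RPKM, H2afv at 116 RPKM, H2afj at 12.3 RPKM, H1f0 at 5.77 RPKM, H2afy at 2.27 RPKM and H1foo at 1.76 RPKM. Here the neighbours that did not overlap were H3f3a and H2afv, and H2afv and H2afj. The 3 genes with the highest mean level per length encode H3.3 and H2A.Z at both stages.

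**Figure D1:**
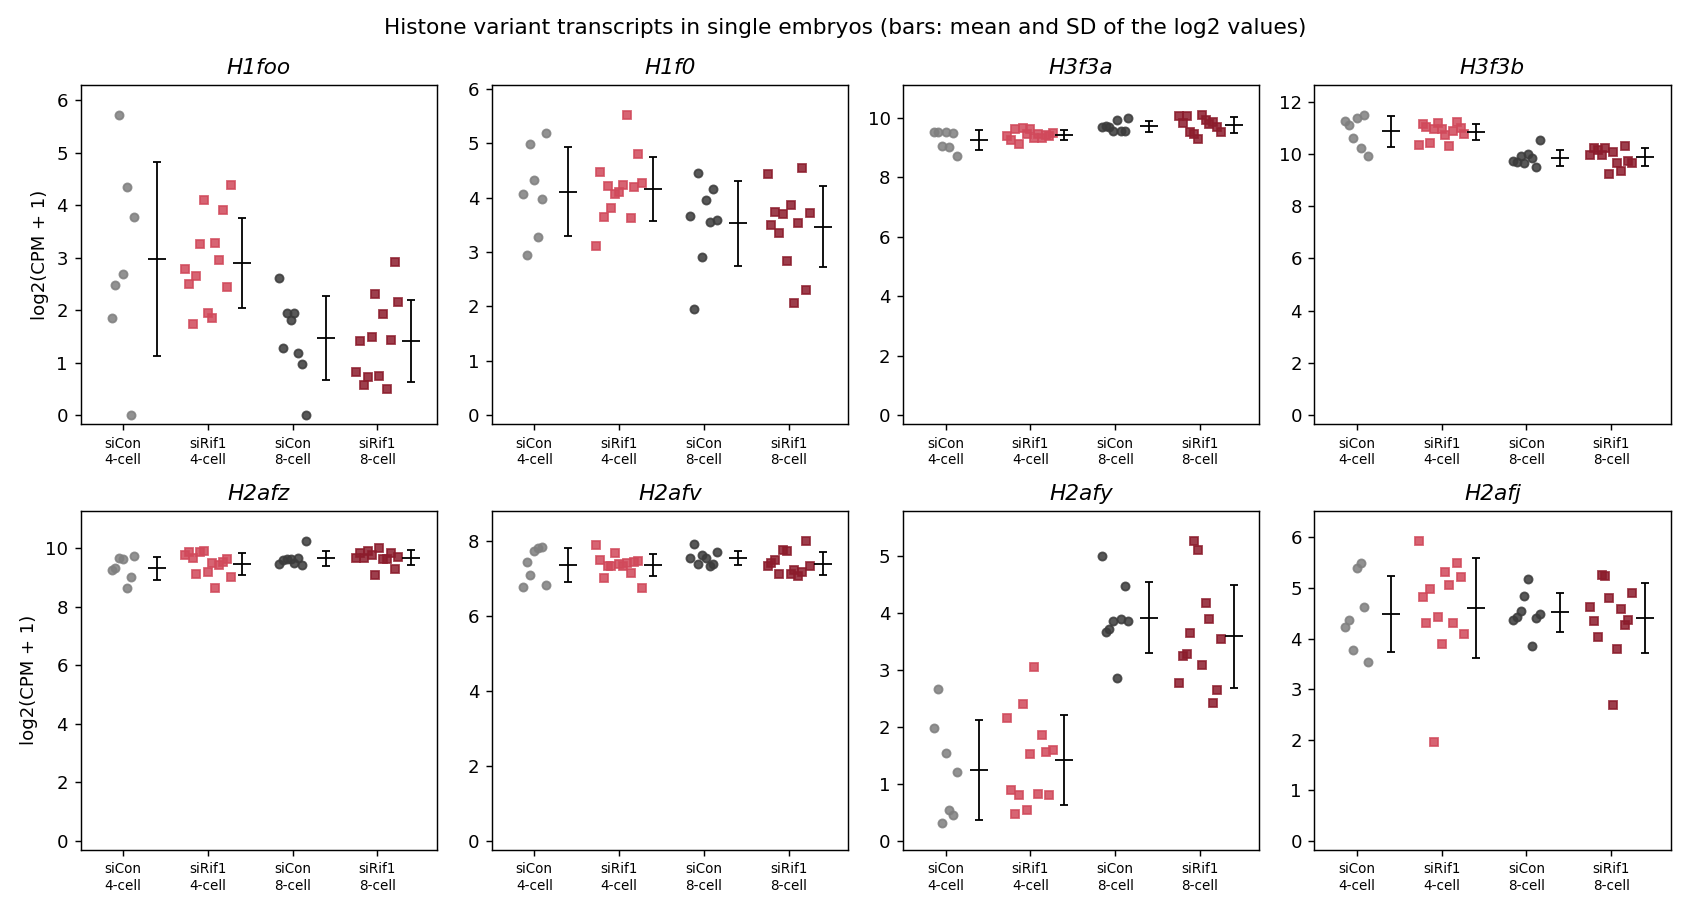
Levels of the 8 histone variant genes in 40 single embryos, as log2(CPM + 1) on the vertical axis, by group on the horizontal axis. Points are embryos and bars are the mean and SD of the log2 values. H2afy lies higher in both 8-cell groups, H3f3b and H1foo lie lower, and siRif1 and siCon embryos of a stage share most of their range.

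Between the stages, 4 of the 8 genes passed the threshold (adjusted p below 0.05 in edgeR) in control embryos, 2 higher and 2 lower, against 30% of all 11844 genes tested, 13.7% higher and 16.3% lower. In siRif1 embryos, which share no sample with the controls, 4 also passed, 2 higher and 2 lower, against 29.8% of genes, 14.5% higher and 15.3% lower. H2afy and H3f3a rose and H1foo and H3f3b fell in both. H2afy and H1foo passed the filter on low counts through the stage where they were higher. The part of this selection in the counts of 4 of 8 was not tested. Without control 4-cell embryos 3 and 7, 2 of the 8 passed in controls, where 2646 of 12223 genes did. They were H3f3b at -1.30 (adjusted p 2.6e-06) and H2afy at 2.71 (adjusted p 0.0014), in edgeR. The median log2 difference over the 8 genes was 0.03 in control and -0.14 in siRif1 embryos, beside -0.03 and -0.01 over all genes tested. Of all genes, 19.9% passed in both comparisons with the same sign.

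H1foo (ENSMUSG00000042279, GRCm38 chr6:115944938-115950236, plus strand) encodes the oocyte linker histone, a maternal form of H1. In the 7 control 4-cell embryos its level was 2.59, 4.57, 51.8, 5.45, 19.3, 0 and 12.7 CPM, in the order of their numbers, and in 13 siRif1 4-cell embryos it ran from 2.32 to 20.0 with a median of 5.88 CPM. In 8-cell embryos it ran from 0 to 5.11 with a median of 1.97 CPM in controls, and from 0.408 to 6.54 with a median of 1.66 CPM in siRif1 embryos. The 2 zero values were in control embryo 6 at the 4-cell stage and control embryo 8 at the 8-cell stage. They allow up to 1.18 and 1.02 CPM (3 counts over that library's gene counts, without TMM scaling, for counting error only).
The groups overlapped in both comparisons, and 8 of 12 siRif1 8-cell embryos were below all 13 siRif1 4-cell embryos. H1foo fell by 2.69 on the log2 scale in controls (SE 0.67, adjusted p 0.0020 in edgeR) and by 1.99 in siRif1 embryos (SE 0.54, adjusted p 0.0043 in edgeR). Without control 4-cell embryo 3 the fall was -1.79 with an adjusted p of 0.036, and without embryos 3 and 7 it was -1.57 with an adjusted p of 0.085, both in edgeR. Embryo 3 is 1 of the 2 with high maternal transcripts, and the part of these in the H1foo difference was not tested. H1foo passed the filter on low counts through its higher 4-cell groups, and the part of this selection in its stage call was not tested.

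H1f0 (ENSMUSG00000096210, GRCm38 chr15:79028450-79030504, plus strand) is the replacement linker histone found in many somatic cells. It had 6.72 to 35.6 CPM (median 15.9) in control and 7.61 to 45.1 CPM (median 17.4) in siRif1 4-cell embryos. Among 8-cell embryos the ranges were 2.87 to 20.8 (median 11.4) and 3.20 to 22.5 CPM (median 11.3). All groups overlapped. The log2 difference between the stages was -0.67 in controls (95% interval -1.42 to 0.09, adjusted p 0.18 in edgeR) and -0.68 in siRif1 embryos (-1.28 to -0.09, adjusted p 0.072 in edgeR), and neither passed the threshold.

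H3f3a (ENSMUSG00000060743, GRCm38 chr1:180800832-180813943, minus strand) is the first of the H3.3 genes. It had 728, 735, 526, 740, 522, 710 and 419 CPM in control 4-cell embryos, and 827, 838, 823, 747, 982, 745, 743 and 1018 CPM in control 8-cell embryos. Every control 8-cell embryo was above every control 4-cell embryo, as was the case in either direction for 5.76% of all genes. In siRif1 embryos it ran from 549 to 797 (median 685) and then from 624 to 1093 CPM (median 897), and 8 of 12 8-cell embryos were above all 4-cell embryos.
H3f3a rose by 0.43 on the log2 scale in controls (SE 0.14, adjusted p 0.016 in edgeR) and by 0.36 in siRif1 embryos (SE 0.10, adjusted p 0.0084 in edgeR). Control embryos 3, 5 and 7 were the lowest at the 4-cell stage. Without embryos 3 and 7 the control difference was 0.27 (adjusted p 0.15 in edgeR), below the threshold, and a fit with each replicate number as a block gave 0.40 (adjusted p 0.054 in edgeR). Without a filter on low counts H3f3a missed the threshold in both, with an adjusted p of 0.069 in controls and 0.057 in siRif1 embryos in edgeR.

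H3f3b (ENSMUSG00000016559, GRCm38 chr11:116021912-116027962, minus strand), the second H3.3 gene, moved the other way. Control 4-cell embryos had 2447, 2223, 1578, 2688, 1212, 2887 and 980 CPM, and control 8-cell embryos had 851, 832, 958, 797, 1025, 924, 725 and 1467 CPM. These groups overlapped, with 6 of 8 8-cell embryos below all 4-cell embryos. The siRif1 embryos ran from 1274 to 2378 (median 2008) and then from 607 to 1273 CPM (median 993), with no overlap, which was the case in either direction for 1.34% of all genes. H3f3b fell by 1.08 on the log2 scale in controls (SE 0.19, adjusted p 4.2e-05 in edgeR) and by 0.96 in siRif1 embryos (SE 0.15, adjusted p 4.5e-06 in edgeR).

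The balance between the H3.3 genes shifted with stage. H3f3a made up 22.0 ± 3.64% (SD, n = 7) of the pair's RNA per length in control and 24.2 ± 3.84% (n = 13) in siRif1 4-cell embryos. Among 8-cell embryos its share was 43.4 ± 3.22% (n = 8) and 44.0 ± 5.84% (n = 12). The shares ran from 17.3 to 26.8% and then from 37.1 to 46.5% in controls, and from 18.5 to 32.0% and then from 33.1 to 53.7% in siRif1 embryos, so the stages did not overlap in either. H3f3a exceeded H3f3b per length in 2 siRif1 8-cell embryos and in no embryo of the other groups.
The log2 ratio of H3f3a to H3f3b rose by 1.46 in controls (exact two-sided permutation p 0.00031, 0.0012 adjusted over 8 ratio tests, 8 of 8 embryos above all earlier ones). In siRif1 embryos it rose by 1.31 (two-sided permutation p 2e-05, the smallest that 100000 resamples can give, 0.00016 adjusted, 12 of 12 above). The summed level of the pair was 851 ± 287 and 826 ± 134 RPKM at the 4-cell stage, and 558 ± 104 and 574 ± 99.8 RPKM at the 8-cell stage, in control and siRif1 embryos.

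For 5 of the genes part of the coding sequence is shared with other genes, and reads that match several places are not assigned to a gene. Of the 50-base stretches of coding sequence, 82.4% occur in another annotated gene for H3f3a, 46.4% for H3f3b, 73.5% for H2afz, 37.0% for H2afj and 14.5% for H2afy, and none do for H1foo, H1f0 and H2afv. Counts on the matching pseudogenes came to 5.46% of the counts on H3f3a and 0.610% of those on H3f3b, so the level of H3f3a is less certain than that of H3f3b. All genes that share sequence with H2afj, H2afx among them, held 13712 counts, against 3166 on H2afj itself, so its level is uncertain too. Genes on the opposite strand overlap H3f3a by 160 bases, H1f0 by 163, H2afj by 141 and H2afy by 501, and unstranded counts do not separate them. For H2afy the overlapping gene, Gm47071, is also the 1 gene that shares its coding stretches. The level per length also divides by the union of all annotated exons, which need not be the transcript made in the embryo.

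**Figure D2:**
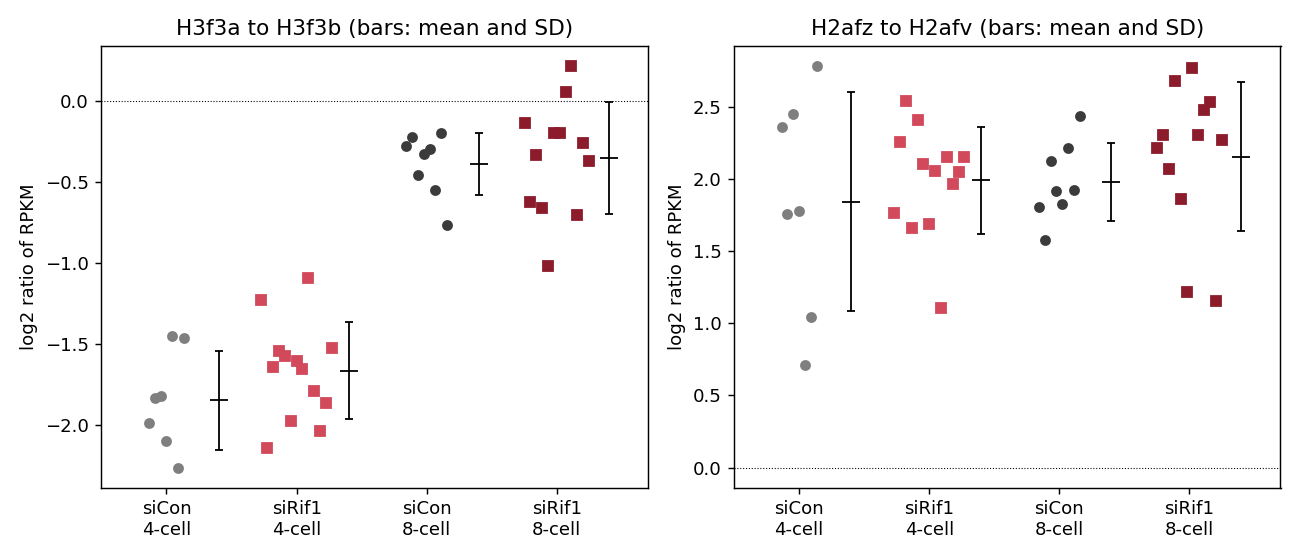
Log2 ratio of RPKM of H3f3a to H3f3b (left) and of H2afz to H2afv (right), 1 point per embryo, by group. Bars are the mean and SD and the dotted line marks equal levels per length. The H3.3 ratio of every 8-cell embryo lies above that of every 4-cell embryo given the same siRNA, and the H2A.Z ratio overlaps between all groups.

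**Figure D3:**
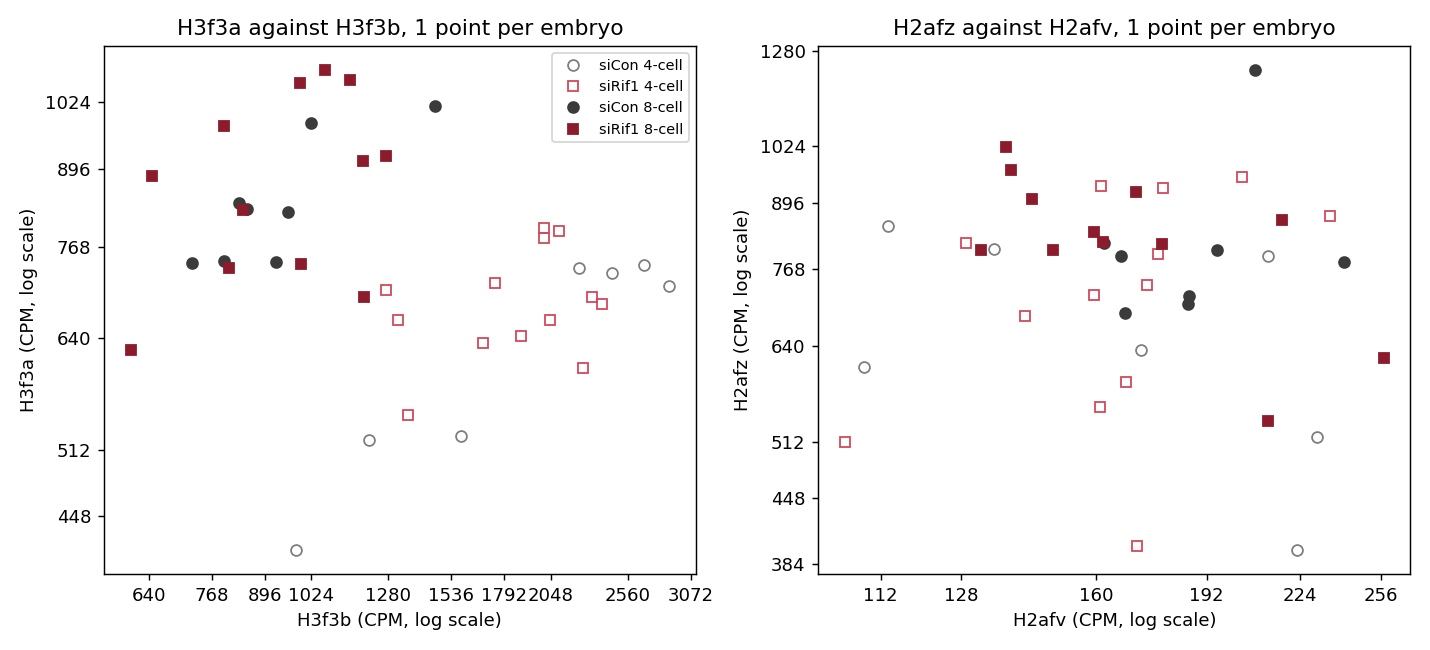
CPM of H3f3a against H3f3b (left) and of H2afz against H2afv (right) on log axes, 1 point per embryo, open at the 4-cell and filled at the 8-cell stage. On the left the stages separate, with 8-cell embryos toward lower H3f3b and higher H3f3a, and on the right they are mixed.

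H2afz (ENSMUSG00000037894, GRCm38 chr3:137864487-137866922, plus strand) is the H2A.Z gene with more RNA. It had 397 to 849 (median 634) and 401 to 953 CPM (median 739) in control and siRif1 4-cell embryos, and 693 to 1224 (median 786) and 538 to 1022 CPM (median 828) at the 8-cell stage. The groups overlapped. The log2 difference between the stages was 0.31 (95% interval -0.03 to 0.66, adjusted p 0.16 in edgeR) in controls and 0.18 (-0.09 to 0.44, adjusted p 0.32 in edgeR) in siRif1 embryos.

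H2afv (ENSMUSG00000041126, GRCm38 chr11:6427229-6444443, minus strand) is the second H2A.Z gene. It had 109 to 230 (median 172) and 106 to 235 CPM (median 168) at the 4-cell stage, and 162 to 241 (median 186) and 132 to 257 CPM (median 161) at the 8-cell stage, in control and siRif1 embryos. Its stage differences were 0.15 (95% interval -0.19 to 0.49, adjusted p 0.54 in edgeR) and 0.04 (-0.22 to 0.30, adjusted p 0.84 in edgeR). H2afz was above H2afv per length in all 40 embryos, at a share of 77.1 ± 9.35% (n = 7), 79.6 ± 4.41% (n = 13), 79.6 ± 2.97% (n = 8) and 81.1 ± 5.95% (n = 12) in control and siRif1 embryos of the 4-cell and then the 8-cell stage. The log2 ratio of H2afz to H2afv passed no permutation test, with adjusted p from 0.61 to 0.73, and the stage differences were 0.14 and 0.16.

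H2afy (ENSMUSG00000015937, GRCm38 chr13:56073619-56136361, minus strand) encodes macroH2A1, and it had the largest rise of the 8 genes. Control 4-cell embryos had 2.95, 5.37, 0.244, 1.91, 0.460, 0.369 and 1.30 CPM, and control 8-cell embryos had 31.0, 11.8, 12.3, 13.6, 6.29, 13.8, 21.2 and 13.6 CPM. The control stages did not overlap, which was the case in either direction for 5.76% of all genes. The siRif1 embryos ran from 0.386 to 7.29 (median 1.88) and then from 4.37 to 37.6 CPM (median 9.70), with 9 of 12 8-cell embryos above all 4-cell embryos.
H2afy rose by 3.05 on the log2 scale in controls (SE 0.58, adjusted p 9.5e-05 in edgeR), a fold of 8.28 with a 95% interval of 3.68 to 18.6, and by 2.74 in siRif1 embryos (SE 0.44, adjusted p 5.6e-06 in edgeR), a fold of 6.69 (3.63 to 12.3). Of all genes tested, 2% changed by at least as much in controls and 0.979% in siRif1 embryos. H2afy had as few as 1 count in a library, so its low values carry a wide counting error. It passed the filter on low counts through its higher 8-cell groups, so its place among the genes tested rests in part on that selection.

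H2afj (ENSMUSG00000060032, GRCm38 chr6:136808244-136810074, plus strand) encodes H2A.J, a variant close in sequence to canonical H2A. It had 10.7 to 44.1 (median 19.6) and 2.88 to 60.2 CPM (median 27.3) in control and siRif1 4-cell embryos, and 13.5 to 35.2 (median 21.0) and 5.46 to 37.2 CPM (median 21.2) at the 8-cell stage. All groups overlapped. The stage differences were -0.09 (95% interval -0.80 to 0.61, adjusted p 0.86 in edgeR) and -0.33 (-0.87 to 0.22, adjusted p 0.37 in edgeR).

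The stage results are relative to all gene counts. When libraries were scaled by the ERCC spike-in totals instead, the median log2 difference of all genes stood at 0.49 in controls and 0.46 in siRif1 embryos, in place of -0.03 and -0.01. On that scale H3f3b was -0.75 (adjusted p 0.21 in edgeR) and -0.44 (adjusted p 0.32), past the threshold in neither, and H3f3a was 0.82 (adjusted p 0.13) and 0.91 (adjusted p 0.022). H1foo was -1.65 (adjusted p 0.057) and -1.72 (adjusted p 0.011), and H2afy was 3.33 (adjusted p 0.00023) and 3.00 (adjusted p 7.1e-06), all in edgeR. No gene changed direction among the 4, and the ratio of H3f3a to H3f3b does not depend on the scaling.

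Depletion of Rif1 passed the threshold for none of the 8 genes at either stage. At the 4-cell stage 0 of 8 passed, against 0.566% of all genes tested, and at the 8-cell stage 0 of 8, against 0.00844%, both with edgeR. At shares this low, 0 of 8 is near the background at both stages. No gene of the 8 had an unadjusted p below 0.05 in either comparison, where 11.1% and 2.95% of all genes did. By DESeq2 and limma-voom 0 of 8 also passed. Over all genes these called 192 of 10925 and 4 of 11844 at the 4-cell stage. At the 8-cell stage they called 1 and 0 of 11844. With so few calls at either stage, 0 of 8 says little about the members. The siRif1 and siCon values of each gene given above overlapped at both stages.

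At the 4-cell stage the log2 differences between siRif1 and siCon, with their 95% intervals, were -0.81 (-1.91 to 0.30) for H1foo and -0.03 (-0.70 to 0.65) for H1f0. They were 0.13 (-0.12 to 0.38) for H3f3a and -0.10 (-0.45 to 0.26) for H3f3b. H2afz gave 0.15 (-0.16 to 0.46), H2afv -0.03 (-0.34 to 0.27), H2afy 0.13 (-0.95 to 1.22) and H2afj 0.22 (-0.42 to 0.86). The adjusted p in edgeR ran from 0.62 to 0.99. The H1foo value turned to 0.32 without control embryos 3 and 7.

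At the 8-cell stage the differences were -0.10 (-1.35 to 1.15) for H1foo, -0.04 (-0.72 to 0.64) for H1f0, 0.06 (-0.18 to 0.31) for H3f3a and 0.02 (-0.32 to 0.37) for H3f3b. They were 0.02 (-0.29 to 0.32) for H2afz, -0.14 (-0.44 to 0.16) for H2afv, -0.17 (-1.07 to 0.72) for H2afy and -0.01 (-0.63 to 0.61) for H2afj, with an adjusted p of 0.999 in edgeR for each. The log2 ratio of H3f3a to H3f3b differed by 0.18 at the 4-cell stage (permutation p 0.22, adjusted 0.58) and by 0.04 at the 8-cell stage (permutation p 0.80, adjusted 0.80), with overlap at both. The intervals of H1foo and H2afy were the widest of the 8 genes at both stages, so the data set the loosest limits for them. With the compared groups alone, 7 of the 8 genes passed the filter on low counts at each stage.

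**Figure D4:**
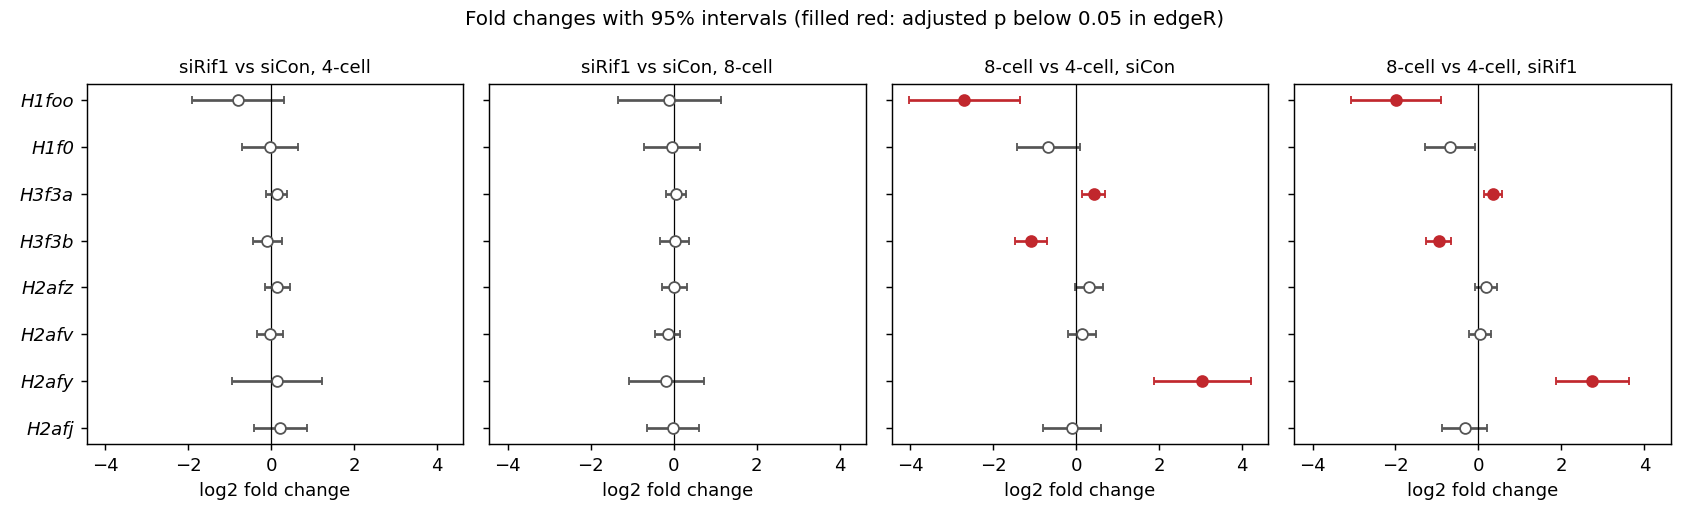
Log2 fold changes of the 8 genes with 95% intervals from edgeR in 4 comparisons, named above each panel. Filled red points passed an adjusted p of 0.05, which 4 genes did in each stage comparison and 0 in each siRif1 comparison.

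The siRNA by stage interaction, the stage difference in siRif1 embryos minus that in controls, passed the threshold for 0 of the 8 genes, with 0% of all genes past it. By the unadjusted p below 0.05, 6.2% of all genes and none of the 8 were past it. DESeq2 and limma-voom also gave 0 of 8, where over all genes 10 of 9318 and 0 of 11844 passed. The values ran from -0.31 for H2afy (95% interval -1.72 to 1.11) to 0.70 for H1foo (-1.004 to 2.41), with an adjusted p from 0.99 to 1.0 in edgeR.

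Factors that place and move these variants were read from lists written with earlier results of these data known. Of 10 H3.3 chaperone genes tested, 4 fell in both stage comparisons and none rose, and these were Hirip3, Cabin1, Dek and Ubn2 each time, against 16.3% of all genes lower in controls and 15.3% in siRif1 embryos. With ERCC totals as scale none of the 10 fell, and Dek stood at 0.012 and 0.0054. Hirip3 is a partner of the HIRA histone chaperone, Cabin1 and Ubn2 are parts of the HIRA complex or its relatives, and Dek binds H3.3. Cabin1 fell by 0.71 in controls (SE 0.17, adjusted p 0.0018 in edgeR) and by 0.54 in siRif1 embryos (SE 0.14, adjusted p 0.0024). The median difference of the list was -0.50 and -0.27, beside -0.03 and -0.01 over all genes.

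Of 26 genes for H2A.Z exchange, 3 rose and 2 fell in controls, and 2 rose and 3 fell in siRif1 embryos. These 5 of 26 stand beside 30% and 29.8% of all genes past the threshold, so the share of the list was below the background. Znhit1, a subunit of the SRCAP complex that deposits H2A.Z, rose by 0.91 in controls (SE 0.22, adjusted p 0.0017 in edgeR) and by 0.57 in siRif1 embryos (SE 0.17, adjusted p 0.010). Ino80, the remodeller that can remove H2A.Z, fell by 0.87 (SE 0.25, adjusted p 0.0082) and by 0.72 (SE 0.20, adjusted p 0.0054), also in edgeR. No gene of either list passed in either siRif1 comparison.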

How the data were processed

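Single embryos were sequenced with SMART-seq2 libraries, which mark neither strand nor molecules. The authors deposited raw read counts per gene made with STAR 2.7.6a on GRCm38, per the submitters' processing notes, with an annotation release that these notes do not name. The 4 summary entries for unassigned reads held 23.2% to 55.4% of reads, and the 92 ERCC entries held 1.09% to 7.18% of gene and ERCC counts. Both stayed out of library sizes and tests. The unstranded counts were used, and GENCODE M21 gave the symbols. No library was a duplicate (lowest chi-square per degree of freedom 7.97 between replicates).

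Counts were tested with edgeR 4.0.16 in R 4.3.3: TMM, filterByExpr (minimum count 10, by group), and a robust quasi-likelihood fit over all 40 libraries with 1 coefficient per group. Benjamini-Hochberg adjustment ran over the 11844 genes tested, and 0.05 was the threshold. All 8 histone variant genes passed the filter, which was run over the 4 groups together. A gene low at 1 stage can thus pass through the other stage. H2afy had 1 to 20 and 1 to 28 counts in control and siRif1 4-cell embryos. H1foo had 0 to 17 and 1 to 10 counts in control and siRif1 8-cell embryos. With the compared groups alone, 7 of the 8 passed in each siRif1 comparison and 8 in each stage comparison. Log2 ratios of the paired genes were compared by permutation tests of the mean over embryos, exact with a group under 10 and otherwise with 100000 resamples. The fit and the ratio test were tested on simulated data. Python 3.11.15 with scipy 1.17.1 made the levels. Alternatives were RLE size factors, no filter, DESeq2 1.42.0, limma-voom (limma 3.58.1), the compared groups alone, ERCC totals, a replicate block, leaving out siCon 4-cell embryos 3 and 7, and leaving out each embryo. Rif1 and the named list genes were refitted under these alternatives after their values were seen.

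The genes and lists were chosen with earlier results of these data known. Named genes were all 8 members, Rif1, up to 4 members each way of each list with the smallest adjusted p, 2 by smallest unadjusted p in lists without a call, and for each member the 3 most correlated genes. Not all of these are printed.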

Additional observations from a re-analysis of the deposited data

Results flagged for a closer look

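Of 20 groups with 4 to 10 embryos in which single values were compared with the others, 3 held a value that stood apart by Dixon's criterion, where chance gives about 1 in 20. H1foo reached 51.8 CPM in siCon 4-cell embryo 3, against 0 to 19.3 CPM in the other 6 embryos. H3f3b reached 1467 CPM and H2afz 1224 CPM in siCon 8-cell embryo 8, against at most 1025 and 816 CPM in the other 7. The same embryo 8 had no count of H1foo.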

How the results depend on the processing

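In controls, between the stages, 4 histone variant genes passed the threshold, and over all genes 3554 of 11844 did. The count was 2 with limma-voom (3513 of 11844 genes) and 1 with ERCC totals (2224 of 11844). Without siCon 4-cell embryos 3 and 7 it was 2 (2646 of 12223 genes). H3f3a also missed the threshold without a filter on low counts, under the replicate block and with the compared groups alone. The replicate block left 3 of the 8 past it in controls and 4 in siRif1 embryos, where 3145 and 3111 of 11844 genes passed. In siRif1 embryos 3 passed without the filter (3894 of 35356 genes) and 3 with ERCC totals (3174 of 11844). Same-numbered embryos did not pair (r from -0.24 to 0.17), and the block gave 1.45 and 1.32 for the ratio of H3f3a to H3f3b. H1f0 passed in siRif1 embryos with DESeq2 and with the compared groups alone. Leaving out 1 embryo gave 4 genes in controls and 4 to 5 in siRif1 embryos, and 0 in the other comparisons. Over all genes the stage calls then ran from 3005 to 3630 in controls and from 3267 to 3590 in siRif1 embryos. Those between siRif1 and siCon ran from 9 to 238 and from 0 to 2 at the 4-cell and 8-cell stages, and those of the interaction from 0 to 3.

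Over all genes, 67 passed between siRif1 and siCon at the 4-cell stage, against 322 without a filter, 192 with DESeq2, 4 with limma-voom, 4 with ERCC totals, 0 with the block, 2 with the groups alone, 1 without embryos 3 and 7, and 9 to 238 with 1 embryo left out. Of the genes past the threshold between the stages, 45.8% were higher in controls and 48.7% in siRif1 embryos, against 80.9% and 86.1% with ERCC totals.

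Among the 8 genes, values that changed sign belonged to genes below the threshold, and the cause was not tested. Between siRif1 and siCon at the 4-cell stage, H1foo was 0.99 with limma-voom and 0.32 without embryos 3 and 7. H1f0 was 0.23 with limma-voom, 0.11 with ERCC totals, 0.020 with the block and 0.50 without embryos 3 and 7. H2afv was 0.089 with ERCC totals and 0.060 with the block. H2afy was -0.014, -0.041 and -0.20 with limma-voom, ERCC totals and without embryos 3 and 7, which also gave -0.0035 for H3f3a and -0.053 for H2afj. At the 8-cell stage H1f0 was 0.020 with limma-voom and 0.082 with ERCC totals, and H2afj was 0.0058 with RLE and 0.0052 with DESeq2. Between the stages in controls, H1f0 was 0.0078 and H2afj 0.45 with ERCC totals, H2afj 0.038 with the block, and H2afv -0.021 without embryos 3 and 7. In siRif1 embryos H2afv was -0.022 with the block and H2afj 0.065 with ERCC totals. For the interaction, H1foo was -1.13 with limma-voom, -0.070 with ERCC totals and -0.42 without embryos 3 and 7, H1f0 was 0.018 with RLE and with DESeq2, and H3f3a was 0.084, 0.095 and 0.075 with limma-voom, ERCC totals and without embryos 3 and 7. The last also gave 0.049 for H2afv, 0.031 for H2afy and 0.045 for H2afj.

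With 1 embryo left out, the siRif1 difference ranged at the 4-cell stage from -1.03 to 0.094 for H1foo, -0.21 to 0.20 for H1f0, -0.22 to 0.013 for H3f3b, -0.12 to 0.052 for H2afv and -0.26 to 0.72 for H2afy. At the 8-cell stage it ranged from -0.36 to 0.25 for H1foo, -0.18 to 0.12 for H1f0, -0.024 to 0.14 for H3f3b, -0.015 to 0.12 for H2afz, -0.40 to 0.070 for H2afy and -0.10 to 0.11 for H2afj. The stage difference ranged from -0.22 to 0.11 for H2afj in controls and -0.044 to 0.092 for H2afv in siRif1 embryos. The interaction ranged from -0.19 to 1.061 for H1foo, -0.25 to 0.17 for H1f0, -0.11 to 0.010 for H3f3a and -0.89 to 0.090 for H2afy. The log2 ratio of H3f3a to H3f3b between siRif1 and siCon ranged from -0.019 to 0.095 at the 8-cell stage, and that of H2afz to H2afv from -0.038 to 0.31 at the 4-cell stage and from -0.052 to 0.29 between the stages in controls. Low counts limit H1foo and H2afy most.

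Rif1 and list genes were refitted under the same settings, a choice made after seeing the data. With ERCC totals, Dek turned to 0.012 in controls and 0.0054 in siRif1 embryos between the stages, and Hirip3, Cabin1, Ubn2, Ino80, Npm2, Asf1b and Hjurp lost their call in both. In controls Ubn2 missed the threshold without siCon 4-cell embryo 5 (-0.47, adjusted p 0.21 in edgeR) or 8-cell embryo 3 (-0.78, adjusted p 0.056) and with the block and limma-voom. Dek did without 4-cell embryo 7 (-0.35, adjusted p 0.083) and without the filter, and Dek, Npm1 and Hjurp did without embryos 3 and 7. In siRif1 embryos Npm1 missed it without 8-cell embryo 7 (0.33, adjusted p 0.052), and Znhit1 without the filter. Among the stage calls named, those of Lsm10, Khdc3 and Cenpa held in every alternative run.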

Other observations

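Other histone genes were read from lists chosen with earlier results of these data known. Of 16 other variant genes, 3 passed the filter on low counts, and H2afx, the variant phosphorylated at DNA breaks, was the single one past the threshold between siRif1 and siCon, at the 4-cell stage. Its mean level fell from 159 ± 101 CPM over the 7 controls to 47.9 ± 41.7 CPM over the 13 siRif1 embryos, a difference of -1.70 on the log2 scale (SE 0.37, adjusted p 0.019 in edgeR), where 0.566% of all genes passed. The call was lost in edgeR without siCon 4-cell embryos 3 and 7 (adjusted p 0.11), without embryo 3 alone (-1.56, adjusted p 0.093) or 6 alone (-1.42, adjusted p 0.063), with ERCC totals (adjusted p 0.60), with the replicate block (adjusted p 0.13) and when the 4-cell groups were fitted by themselves (adjusted p 0.19). Cenpa, the centromeric H3 variant, rose by 0.64 between the stages in siRif1 embryos (SE 0.17, adjusted p 0.0038 in edgeR). In controls the Cenpa difference was 0.24 (SE 0.22, adjusted p 0.43), and its interaction was 0.40 (SE 0.28, adjusted p 0.92), both in edgeR. Of 67 replication-dependent histone genes, 3 passed the filter, and none of these 3 passed the threshold in any of the 5 comparisons. The other genes of this list were not tested. Summed over the 67 genes, the median was 23.4 and 15.4 CPM in control and siRif1 4-cell embryos, and 37.4 and 31.1 CPM at the 8-cell stage. How far the library method captures these transcripts was not tested, so low counts here need not mean low expression.

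Of 24 other histone chaperone genes, 2 rose and 6 fell between the stages in controls, and 3 rose and 5 fell in siRif1 embryos. These 8 of 24 are near the background of 30% and 29.8% of all genes. With ERCC totals none passed in controls, and in siRif1 embryos 4 rose and none fell. Npm2, an oocyte nucleoplasmin, fell by 1.43 (SE 0.32, adjusted p 0.00061 in edgeR) and by 1.01 (SE 0.25, adjusted p 0.0020). Asf1b, which carries H3 and H4, fell by 1.497 (SE 0.32, adjusted p 0.00043 in edgeR) and by 0.88 in siRif1 embryos (SE 0.25, adjusted p 0.0072). Hjurp, the chaperone of Cenpa, fell by 0.67 (SE 0.17, adjusted p 0.0029 in edgeR) and by 0.43 (SE 0.13, adjusted p 0.013), while Npm1 rose by 0.63 (SE 0.17, adjusted p 0.0050) and by 0.40 (SE 0.13, adjusted p 0.019). Of 11 genes for histone mRNA processing, 3 fell and none rose in controls, and 3 fell and 1 rose in siRif1 embryos, against the same 30% and 29.8%. Casp8ap2 and Lsm10 fell in both, and Lsm10, of the U7 particle, by 2.50 and 1.72 on the log2 scale.

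Of 45 maternal oocyte transcripts, 36 were tested. In controls 26 fell and 1 rose between the stages, against 16.3% and 13.7% of all genes, and in siRif1 embryos 21 fell and 1 rose, against 15.3% and 14.5%. At the 4-cell stage 6 were lower in siRif1 than siCon embryos, against 0.439% of all genes, and 0 were without siCon 4-cell embryos 3 and 7, with the replicate block, with the compared groups alone or with limma-voom. The one that rose in both was Khdc3, by 3.07 and 2.77 on the log2 scale.

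Across the 40 embryos, the genes with the highest Pearson correlation of log2 CPM, which reflects stage as well as embryo, were Accsl for H1foo (r = 0.75), C1qbp for H3f3a (r = 0.89), Uba2 for H3f3b (r = 0.88), Fkbp3 for H2afz (r = 0.71), Nelfe for H2afv (r = 0.64), Crip2 for H2afy (r = 0.85), Hibadh for H1f0 (r = 0.70) and Scand1 for H2afj (r = 0.88). H2afj did not pass the threshold in any comparison. Within groups, after each group's mean was removed, r over the 40 embryos was 0.64 for H3f3a with H3f3b and -0.15 for H2afz with H2afv.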
